A study of Mus musculus with 6 samples.

Results

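The genes described here are 10 genes of striated muscle read in whole kidneys of E13.5 mouse embryos: Myog, Actc1, Tnnc1, Tnnt1, Tnnt2, Myh3, Myl4, Actn2, Synpo2l and Apobec2. They are 10 of the 18193 genes that the array annotation gives at least 1 probe set of their own, a probe set being the group of short oligonucleotides that reads 1 transcript. All 17 probe sets given to these genes alone were taken. The members were chosen by their measured Fz4-/- against Fz4+/+ differences and their shared pattern over the same 6 arrays, so the genotype difference is given as a description with no test. The name sarcomere does not cover all of them: Myog encodes a transcription factor, and Apobec2 a muscle protein of the cytidine deaminase family. The arrays hold 3 Fz4-/- samples and 3 Fz4+/+ samples, a pair from each of 3 litters. Fzd4 encodes Fz4, a Frizzled receptor that Wnt ligands and Norrin bind. How the allele was made, and whether a sample held the kidneys of 1 embryo or of several, is not given in the sources used here, so the spread between samples may be partly technical.

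Striated muscle contracts through the sarcomere, in which thick filaments of myosin pull on thin filaments of actin. Calcium starts the pull by binding troponin C on the thin filament, and troponin T anchors the troponin complex to tropomyosin. The thin filaments end in the Z-disc, where alpha-actinin crosslinks them. In the embryo, skeletal muscle of the trunk is made from somites under factors of the MyoD family, which bind E-box sequences, and it uses several isoforms that the adult keeps mainly in the heart. The kidney itself holds smooth muscle, around the ureter and later the vessels, and no striated muscle.

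The 4 genes whose levels spread most over the 6 arrays were Tnnc1, Myog, Myh3 and Actc1, and their promoters are shown because their levels varied together from array to array. Each window covers 250 bases before and 50 after the gene's start in RefSeq (GRCm38.p6) and is written 5′ to 3′ on the gene's strand. Capitals mark E-boxes (CANNTG) and the CArG box, the binding sequence of serum response factor.
Myog promoter, chr1:134289754-134290053, plus strand: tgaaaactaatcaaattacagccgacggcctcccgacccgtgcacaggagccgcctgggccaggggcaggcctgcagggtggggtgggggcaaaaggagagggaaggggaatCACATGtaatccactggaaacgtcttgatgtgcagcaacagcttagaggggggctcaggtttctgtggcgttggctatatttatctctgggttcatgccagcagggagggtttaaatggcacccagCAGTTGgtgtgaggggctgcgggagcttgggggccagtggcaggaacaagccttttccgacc
Tnnc1 promoter, chr14:31208062-31208361, plus strand: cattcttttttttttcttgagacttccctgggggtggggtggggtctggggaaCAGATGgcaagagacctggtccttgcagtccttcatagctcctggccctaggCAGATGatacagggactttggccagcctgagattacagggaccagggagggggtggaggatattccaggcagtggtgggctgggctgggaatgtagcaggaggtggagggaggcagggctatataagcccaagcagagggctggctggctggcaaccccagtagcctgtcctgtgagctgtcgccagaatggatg
Myh3 promoter, chr11:67078050-67078349, plus strand: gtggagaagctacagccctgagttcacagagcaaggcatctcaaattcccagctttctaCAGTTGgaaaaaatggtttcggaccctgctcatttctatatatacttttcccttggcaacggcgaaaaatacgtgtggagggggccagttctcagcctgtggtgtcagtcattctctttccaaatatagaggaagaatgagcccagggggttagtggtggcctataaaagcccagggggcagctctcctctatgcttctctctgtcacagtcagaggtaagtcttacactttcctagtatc
Actc1 promoter, chr2:114052826-114053125, minus strand: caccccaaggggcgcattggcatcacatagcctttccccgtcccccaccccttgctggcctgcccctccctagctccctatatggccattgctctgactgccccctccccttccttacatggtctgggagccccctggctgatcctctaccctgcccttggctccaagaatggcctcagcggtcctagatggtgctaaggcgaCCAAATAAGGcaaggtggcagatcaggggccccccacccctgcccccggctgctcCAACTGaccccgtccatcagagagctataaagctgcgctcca
Counted from the gene's start, the Myog window held E-boxes at -138 and -12, and the Actc1 window a CArG box at -47. RefSeq gave 12 such windows for the 10 genes. Of these, 11 held an E-box, as did 72.3% of all 32851 promoter windows. The stricter E-box CAGCTG was in 3 of the 12, for Tnnt2, Synpo2l and Apobec2, and in 16.3% of all windows. The motif of MEF2, a partner of the MyoD family, was in 2 windows in the form searched, both of Synpo2l, and in 3.19% of all. Its matches in Synpo2l were CTATAATTAG and TTATTTTTAG. Looser forms, such as the ctatatttat in the Myog window, were not counted. The CArG box was in 1 of the 12 and in 1.63% of all. CATTCC, the core of the MCAT element, was in 3, for Tnnt2, Tnnc1 and Apobec2, and in 14.7% of all. All motifs were searched on both strands, and a CAGCTG is also counted as a CANNTG. These matches describe the letters in the windows and do not show binding.

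Values are the deposited log2 expression values, so a step of 1 is a doubling of signal, and the levels of different genes cannot be compared. The medians of the 6 arrays lay between 6.62 and 6.74. Fzd4 matched the labels: its brightest probe set read 4.37, 3.58 and 6.22 in the Fz4-/- samples of litters 1 to 3, against 11.21, 11.12 and 10.31 in the Fz4+/+ samples. The 14 measured markers of the developing kidney had nearly the same mean level in every sample, between 9.73 and 9.78 in Fz4-/- and between 9.65 and 9.79 in Fz4+/+. Sall1, Lhx1, Foxd1 and Wt1, transcription factors of the kidney mesenchyme and early nephrons, were the brightest of these and differed by 0.04 to 0.11 between the genotypes. Single kidney markers moved both ways, with 5 of the 14 lower in Fz4-/- and 9 higher. Cited1 and Gdnf differed by -0.33 and -0.25 (Fz4-/- minus Fz4+/+), and Cdh16 and Wnt9b by 0.36 and 0.30. These last 4 were named after their values were seen. Myod1 and Acta1, defining genes of skeletal muscle, passed the signal filter, a mean of at least 5.89 log2 over the 6 arrays, whereas Myf5 and Pax7, markers of muscle progenitors, averaged below it.

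The difference in the 10 muscle genes lay mainly in litter 2. All 10 genes had their lowest value in the Fz4-/- sample of litter 2, and 7 had their highest in its Fz4+/+ littermate. The mean over the 10 genes was 7.50, 6.37 and 7.78 in the Fz4-/- samples of litters 1 to 3, against 7.79, 8.47 and 7.74 in the Fz4+/+ samples. The 4 samples of litters 1 and 3 thus lay within 0.29 of each other, while the 2 samples of litter 2 lay 1.34 below and 0.77 above their mean. The genotypes overlapped. Fz4-/- samples averaged 7.22 ± 0.75 and Fz4+/+ samples 7.999 ± 0.41 (SD, n = 3 each), a difference of -0.78 ± 0.49 (SE). Within litters it was -0.29, -2.11 and 0.05. Leaving out the low Fz4-/- array of litter 2 gave -0.36, leaving out its high Fz4+/+ array gave -0.55, and leaving out both gave -0.12. In samples of whole tissue, a different number of muscle cells and a different amount of muscle RNA per cell cannot be told apart, in whichever sample they arise.

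**Figure D1:**
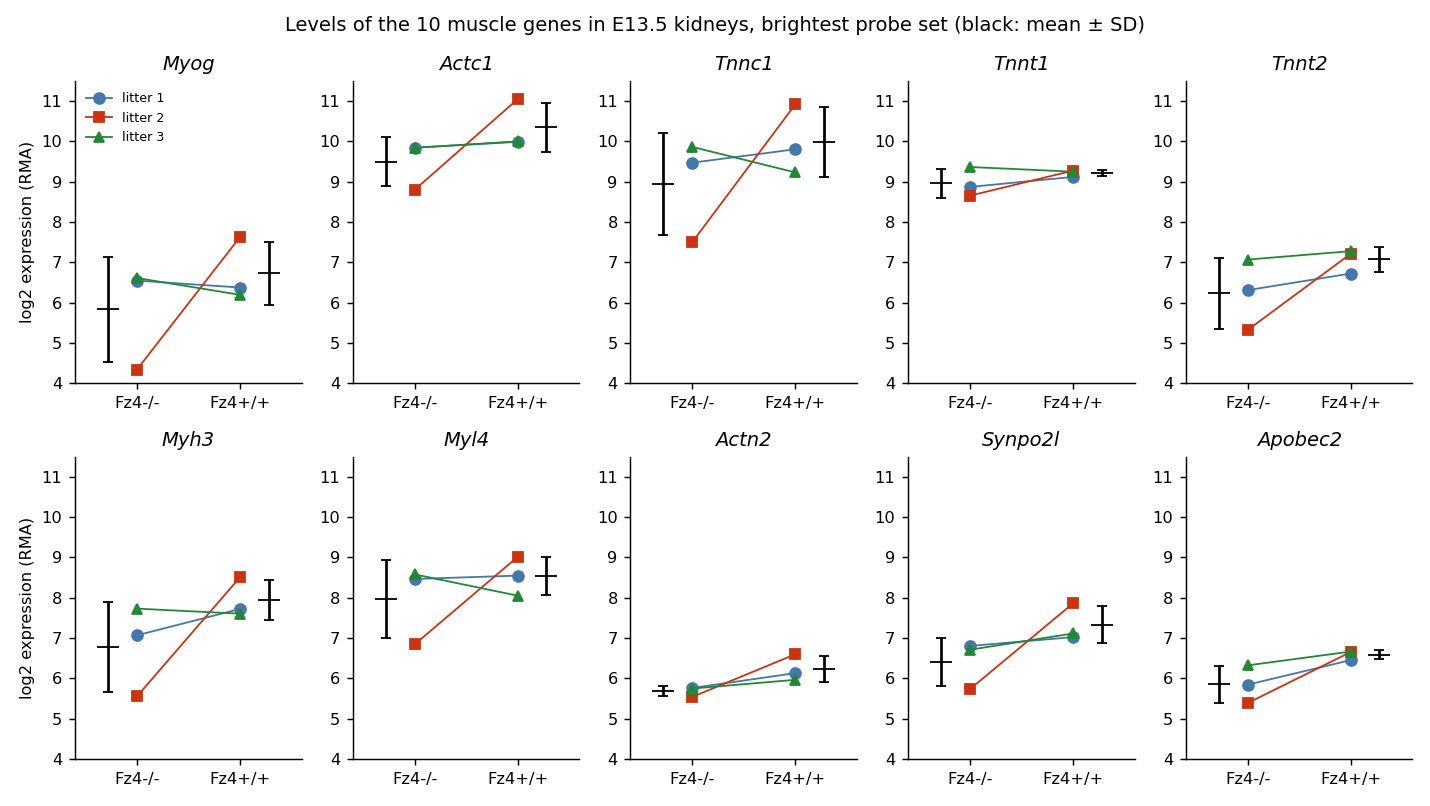
Log2 expression of each of the 10 genes on its brightest probe set in Fz4-/- (left) and Fz4+/+ (right) samples, with lines joining samples of 1 litter and black bars for the mean ± SD of 3 samples. The red squares of litter 2 lie lowest in Fz4-/- for all 10 genes and highest in Fz4+/+ for 7, and litters 1 and 3 lie closer together.

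Myog, or myogenin, drives myoblasts to differentiate. It read 6.55, 4.34 and 6.61 in the Fz4-/- samples of litters 1 to 3, against 6.38, 7.63 and 6.19 in the Fz4+/+ samples. Litter 2 alone separated the genotypes, and in litters 1 and 3 the Fz4-/- sample was the higher one, by 0.17 and 0.42. The overall difference was -0.90 ± 0.87 (SE). Without litter 2 it was 0.29, so the sign turned.

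Actc1, the alpha-actin of cardiac and embryonic skeletal thin filaments, was the gene in which the other litters agreed most closely. It read 9.85, 8.80 and 9.84 in Fz4-/- samples, against 9.99, 11.05 and 10.002 in Fz4+/+ samples. Litters 1 and 3 spanned only 0.16 over 4 samples, and litter 2 spanned 2.25, with its Fz4-/- sample 1.12 below the mean of those 4 and its Fz4+/+ sample 1.13 above it. The genotypes did not overlap, and they differed by -0.85 ± 0.50 (SE), or by -0.15 without litter 2.

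Tnnc1 encodes the troponin C of slow skeletal and cardiac muscle, and it had the widest spread. Its values were 9.47, 7.50 and 9.86 in Fz4-/- samples, against 9.81, 10.92 and 9.23 in Fz4+/+ samples. In litter 2 the Fz4+/+ signal was 10.7 times the Fz4-/- signal. In litter 3 the order was opposite, with Fz4-/- higher by 0.63. The overall difference was -1.04 ± 0.88 (SE), and without litter 2 it was 0.15.

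The troponin T genes differed in size. Tnnt2, the cardiac and embryonic isoform, read 6.31, 5.32 and 7.07 in Fz4-/- samples, against 6.72, 7.21 and 7.28 in Fz4+/+ samples. Its Fz4-/- sample of litter 2 was low, but the Fz4+/+ sample of litter 2 was not the highest, and litter 1 lay below litter 3 in both genotypes. The difference was -0.84 ± 0.54 (SE), and -0.31 without litter 2. Tnnt1, the slow skeletal isoform, read 8.87, 8.65 and 9.37 in Fz4-/- samples, against 9.12, 9.28 and 9.25 in Fz4+/+ samples. Its range of 0.71 over the 6 arrays was the smallest among the 10 genes, and its difference was -0.25 ± 0.22 (SE), and -0.07 without litter 2.

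Of the thick filament genes, Myh3 encodes the embryonic myosin heavy chain. It read 7.07, 5.55 and 7.73 in Fz4-/- samples, against 7.72, 8.51 and 7.60 in Fz4+/+ samples. Its difference of -1.16 ± 0.70 (SE) was the largest in size among the 10, and without litter 2 it was -0.26. Myl4, the atrial and embryonic essential light chain, read 8.47, 6.84 and 8.58 in Fz4-/- samples, against 8.55, 9.01 and 8.05 in Fz4+/+ samples. Only the Fz4-/- sample of litter 2 stood well below the others. The difference was -0.58 ± 0.63 (SE), and it was -0.02 without that sample and 0.22 without litter 2.

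On the brightest probe sets, the genotypes did not overlap for either gene of the Z-disc. Actn2, the alpha-actinin that crosslinks actin there, read 5.76, 5.54 and 5.75 in Fz4-/- samples, against 6.13, 6.60 and 5.96 in Fz4+/+ samples. All these levels were near the signal filter, where the RMA summary compresses differences. The difference was -0.55 ± 0.20 (SE), and -0.29 without litter 2. Synpo2l, a Z-disc protein related to synaptopodin, read 6.80, 5.73 and 6.71 in Fz4-/- samples, against 7.02, 7.86 and 7.11 in Fz4+/+ samples. On this probe set Synpo2l was lower in Fz4-/- in every litter, by 0.22, 2.13 and 0.40 on the log2 scale. Over all litters it differed by -0.92 ± 0.43 (SE), or by -0.31 without litter 2.

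Apobec2 did not overlap either, and it rested least on litter 2 among the genes that did not overlap. It read 5.84, 5.39 and 6.32 in Fz4-/- samples, against 6.45, 6.65 and 6.66 in Fz4+/+ samples. The Fz4+/+ samples were close together and the Fz4-/- samples spread more widely, with SDs of 0.47 in Fz4-/- and 0.12 in Fz4+/+. The difference was -0.74 ± 0.28 (SE), and -0.48 without litter 2, with -0.61, -1.27 and -0.34 within litters 1 to 3.

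**Figure D2:**
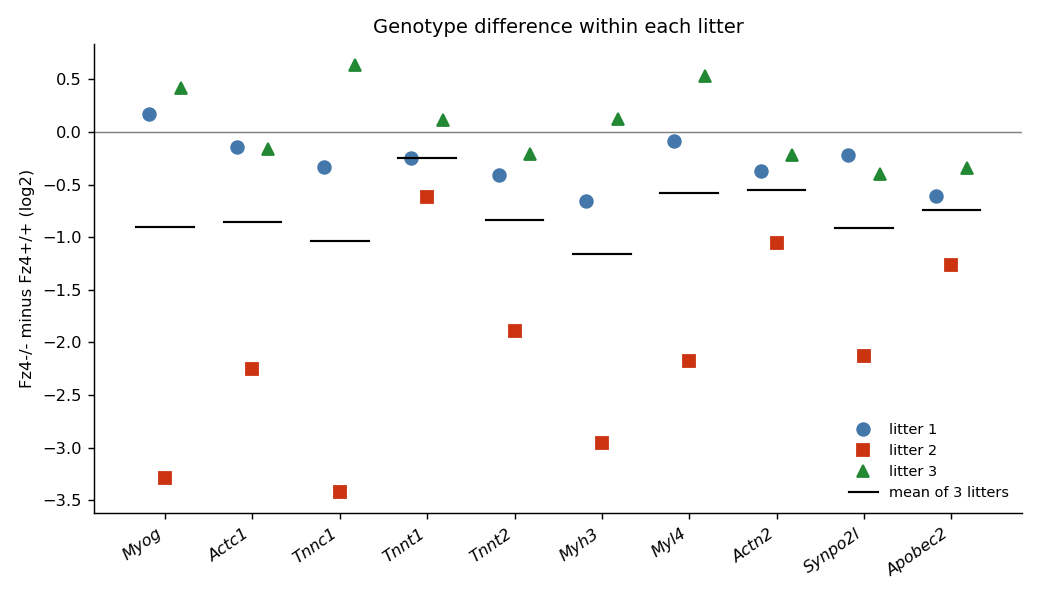
Log2 difference of Fz4-/- minus Fz4+/+ within each litter for the 10 genes, with a black line for the mean of the 3 litters. Litter 2 runs from -3.42 for Tnnc1 to -0.62 for Tnnt1 and is the lowest point for every gene, whereas litter 1 runs from -0.65 to 0.17 and litter 3 from -0.40 to 0.63.

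All 10 genes were lower in Fz4-/- in litter 2, 9 in litter 1 and 5 in litter 3. For comparison, 28.6% of the 12535 tested genes were lower in Fz4-/- in litter 2, 48.3% in litter 1 and 53.8% in litter 3. The median over the 10 genes was -2.15 in litter 2, -0.29 in litter 1 and -0.02 in litter 3, against 0.12, 0.01 and -0.01 over all tested genes. Over all litters the median of the 10 was -0.845, against 0.03 for all tested genes, and without litter 2 it was -0.21, with 7 of the 10 below 0. In litter 2, 9 of the 10 genes lay at or below -1, as did 162 of all tested genes. Each of the 10 followed the mean of the other 9 over the 6 arrays with a Pearson's r between 0.83 for Actn2 and 0.99 for Myh3, and Spearman's rho between 0.60 and 0.94. The arrays are shared by all 10 genes and the 2 samples of litter 2 are the extremes for most of them, so these correlations are descriptions.

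**Figure D3:**
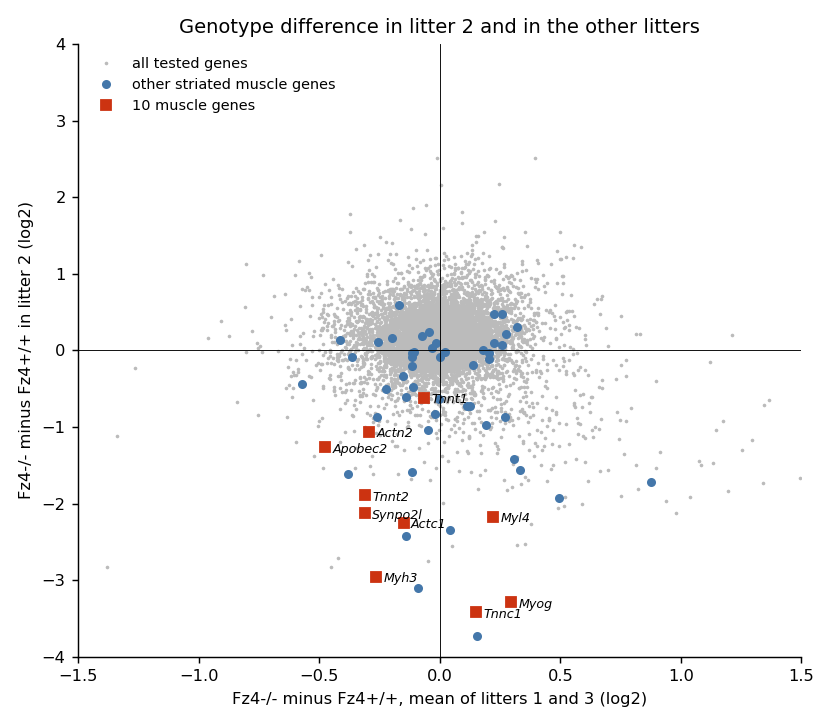
Log2 difference of Fz4-/- minus Fz4+/+ in litter 2 (vertical) against the mean of the differences in litters 1 and 3 (horizontal) for 12535 tested genes in grey, other striated muscle genes in blue and the 10 muscle genes in red. The red points spread from -0.62 to -3.42 vertically and lie between -0.48 and 0.29 horizontally. The 8 genes outside the axes, Fzd4 among them, are not drawn.

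Of the 17 probe sets, 12 passed the signal filter, at least 1 for each gene. limma, at a Benjamini-Hochberg adjusted threshold of 0.05, called 0 of these 12, as it called 0% of all 27022 tested probe sets (0 called, 239 at an unadjusted p under 0.05). The genotypes did not overlap for 4 of the 12, with Fz4-/- lower, against 1.21% of all tested probe sets. The Fz4-/- sample of litter 2 was the lowest for all 12, against 5.86% of tested probe sets, and the Fz4+/+ sample of litter 2 the highest for 8, against 13.3%. Both held for 8 of the 12, against 0.951% of all tested probe sets. Since the genes were picked with these arrays in view, the shares are a description.

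The further probe sets of a gene gave part of the picture. The second Tnnt2 probe set, whose name marks probes that may bind other transcripts, read 6.16, 5.14 and 6.76 in Fz4-/- samples, against 6.32, 6.95 and 6.80 in Fz4+/+ samples. Litter 2 was lowest in Fz4-/- and highest in Fz4+/+ there. The second Apobec2 probe set read 5.80, 5.23 and 6.54 in Fz4-/- samples, against 6.34, 5.79 and 6.72 in Fz4+/+ samples. Here the Fz4+/+ sample of litter 2 was the lowest of its genotype, unlike on the first, and the genotypes overlapped. The remaining 5 probe sets were below the filter: the third of Tnnt2, 3 of Synpo2l and the second of Myl4. Among them, differences ran from -0.41 for 1 of Synpo2l to 0.03 for Myl4, the only probe set of the 17 above 0. On these 3 of Synpo2l the genotypes overlapped. Fz4-/- was the higher one in litter 3 on 2 of them, by 0.23 and 0.34, and in litter 1 on the other, by 0.03.

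Other genes of striated muscle, taken from 3 lists of known muscle genes, followed litter 2 in part. Of 83 such genes analysed, 62 were below 0, with a median of -0.16. The Fz4-/- sample of litter 2 was the lowest for 35 and the Fz4+/+ sample of litter 2 the highest for 33. Among all 12535 tested genes, 36.5% were below 0, and these samples were the lowest for 732 and the highest for 1430. The 83 include genes below the filter, whereas the tested genes all passed it. Of the 48 that passed the filter, limma called 0 in either direction, as it called 0 of all 12535 tested genes. At an unadjusted p under 0.05 there were 0 of the 48, and 94 of the 12535. Among 41 other sarcomere and Z-disc genes 32 read below 0. Their median was -0.16, and in litter 2 it was -0.53 with 35 below 0. Mylpf, the regulatory light chain of fast skeletal muscle, read 8.999, 6.33 and 9.06 in Fz4-/- samples, against 9.15, 10.05 and 8.60 in Fz4+/+ samples. Litter 2 spanned 3.73 there, more than in any of the 10 genes. Acta1, the skeletal alpha-actin, read 6.74, 5.25 and 7.13 in Fz4-/- samples, against 6.93, 7.60 and 6.85 in Fz4+/+ samples. It is close in coding sequence to Actc1, and how far their probe sets share signal was not tested. Tpm3 and Tpm2, tropomyosins that other cells also make, and Des, the intermediate filament desmin of all muscle, did not follow. They were the brightest of this list and differed by 0.12, -0.09 and -0.08 between the genotypes, whereas Mylpf came next in level. Unc45b, Actn3, Myom1 and Trim63, which passed the filter, read higher in Fz4-/- in litter 2, by 0.59, 0.31, 0.21 and 0.18. These last genes were named after their values were seen.

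The genes of excitation, calcium handling and muscle metabolism were mixed. Of 28 such genes 19 read below 0. Their median was -0.04, and -0.08 in litter 2. The brightest were Eno3, a muscle enolase, Srl, or sarcalumenin, Tmem38a, a channel of the sarcoplasmic reticulum, and Jph2, a junctophilin, at -0.01, 0.05, -0.10 and -0.14. In litter 2, 60.7% of the list read below 0, against 28.6% of all tested genes, and 17.9% had both extremes in litter 2, against 0.822% of all tested genes. The list shares are over all 28 genes, of which 17 passed the filter, whereas the tested genes all passed it. Chrna1, Casq2, Mb, Atp2a1 and Cox6a2, the 5 with both extremes there, read -1.45, -1.04, -0.97, -0.83 and -0.64 in litter 2 and were named after their values were seen. Chrna1 averaged 4.84 over the 6 arrays, below the filter. Of 14 myogenic regulators 11 read below 0. Their median was -0.25, and in litter 2 it was -0.63 with 12 below 0. Myod1, which commits cells to muscle, read 6.36, 5.40 and 5.89 in Fz4-/- samples, against 5.86, 6.99 and 6.63 in Fz4+/+ samples. Cdh15, the cadherin of myoblasts, differed by -0.23, Mymx, a factor of myoblast fusion, by -0.27, and Six4 by -0.23. Mef2c, which endothelium and other cells also express, differed by 0.02. Pax7 and Myf5 differed by -0.34 and 0.03, both below the filter.

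**Figure D4:**
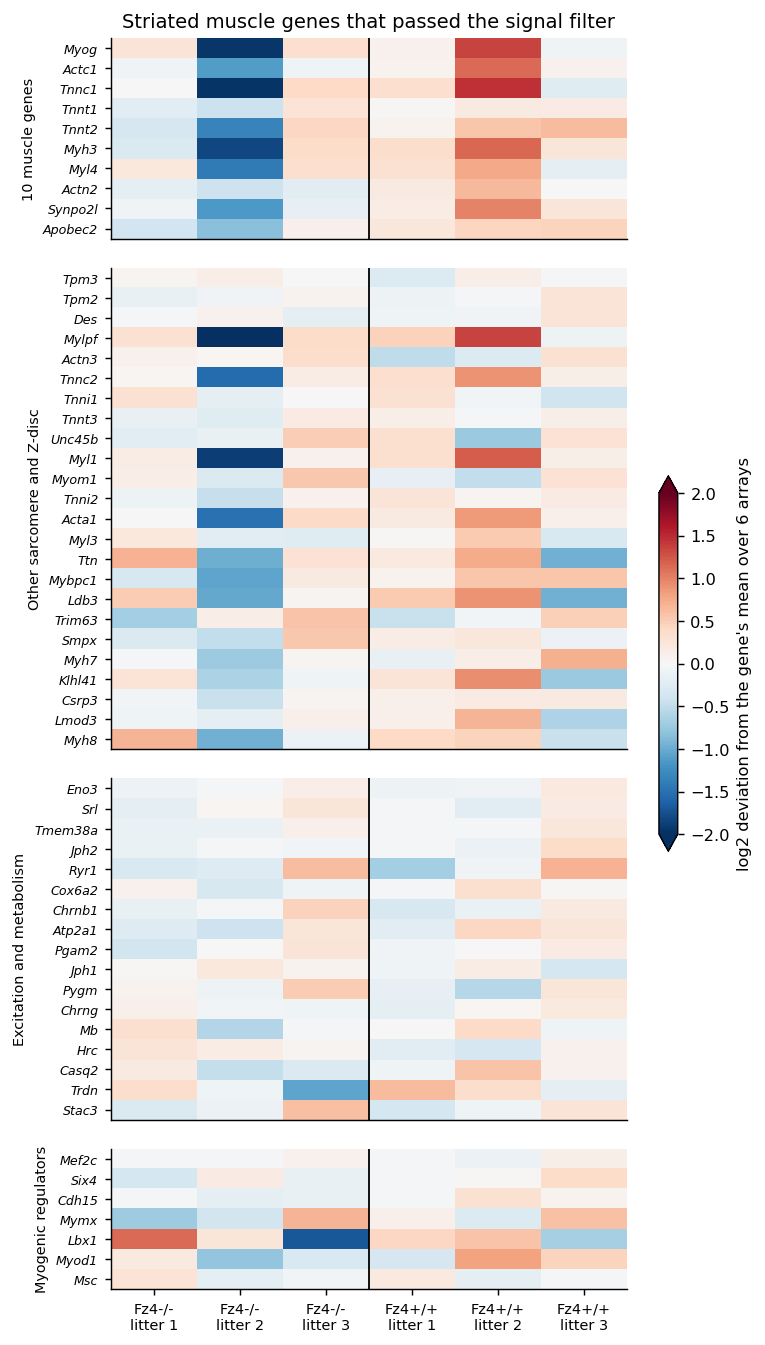
Log2 deviation from the gene's mean over 6 arrays for the 10 muscle genes and the 48 other striated muscle genes that passed the signal filter, with Fz4-/- samples left of the black line and Fz4+/+ samples right of it. The second column (Fz4-/-, litter 2) is blue for all 10 genes and for Mylpf, Tnnc2, Myl1 and Acta1, and the fifth (Fz4+/+, litter 2) is red, while many genes of excitation and metabolism are pale. Colours saturate at 2 log2 units on either side.

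Across all tested genes, likeness to the mean of the 10 was measured as Pearson's r over the 6 arrays, among 798 genes whose standard deviation was at least 0.5 log2. The 4 most alike were fast skeletal and sarcomeric genes. They were Tnnc2, the fast skeletal troponin C (0.99, Spearman's rho 1.00), Acta1 (0.99, rho 0.94), Myl1, a fast skeletal light chain (0.99, rho 0.77), and Mylpf (0.97, rho 0.94). The gene 2610507I01Rik (0.93) and Mybpc1, the slow skeletal myosin binding protein C (0.92), came next. The homeobox gene Isl1 (0.90), Myod1 (0.80), Trim16 (0.79) and Shmt1 (0.775) completed the 10, with rho of 0.37, 0.49, 0.49 and 0.09. With the mean of each gene's probe sets in place of the brightest, 6 of these 10 were again among the 10 most alike. The samples share litters, so the correlations are descriptions.

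Markers of other tissues were followed in the same samples. Genes of a heart list, some of which other tissues also express (the transcription factors Hand1, Hand2, Tbx5 and Tbx20), had means of 5.69, 5.43 and 5.46 in Fz4-/- samples, against 5.596, 5.69 and 5.43 in Fz4+/+ samples. Of 11 such genes 4 passed the filter, and the Fz4-/- sample of litter 2 was the lowest for 2 of the 11 and the Fz4+/+ sample of litter 2 the highest for 3. Within litter 2, 8 of the 11 read lower in Fz4-/-, with a median of -0.32, against 0.12 over all tested genes. Tbx20 and Tbx5 differed there by -1.15 and -0.92, whereas Tnni3 differed by 0.85. The brightest were Tnni3, the cardiac troponin I (0.45), Hand1 (-0.13), Tbx5 (-0.26) and Tbx20 (0.02), while Nkx2-5, the cardiac homeobox gene, read between 3.91 and 4.02 in Fz4-/- and between 4.06 and 4.27 in Fz4+/+. Smooth muscle genes averaged 7.52, 7.48 and 7.39 in Fz4-/- samples, against 7.47, 7.59 and 7.40 in Fz4+/+ samples. Of 10 such genes 6 were below 0, among them Acta2, the smooth muscle actin (-0.35), and Myocd, the cofactor myocardin (-0.11), whereas Mylk and Smtn read 0.08 and 0.06. The highest smooth muscle mean was also that of the Fz4+/+ sample of litter 2, and in that litter 7 of the 10 genes read lower in Fz4-/-. Myocd read 8.73, 8.44 and 7.84 in Fz4-/- samples, against 8.29, 9.34 and 7.69 in Fz4+/+ samples. Acta2 and Myh11, the smooth muscle myosin heavy chain, were likewise highest in the Fz4+/+ sample of litter 2, at 10.55 and 6.95, whereas the Fz4-/- sample of litter 2 was the lowest for 1 of the 10 genes. Myh11 was singled out after its values were seen.

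Chromaffin markers of the adrenal medulla, which lies beside the kidney, shared the high Fz4+/+ sample of litter 2 in their mean. Their mean was 5.75, 5.56 and 5.65 in Fz4-/- samples, against 5.79, 6.59 and 6.75 in Fz4+/+ samples. Of 8 such genes 8 were below 0, with Chgb, a granule protein, at -1.86, Pnmt, which makes adrenaline, at -0.71, Slc18a1, a vesicular amine transporter, at -0.70 and Ddc at -0.07. The Fz4+/+ sample of litter 2 was the highest for 3 of the 8 genes, and Ddc had its lowest value there, at 6.80. In the chromaffin mean the Fz4+/+ sample of litter 3 was higher still, at 6.75 against 6.59 in litter 2. In the mean of the 10 muscle genes it read 7.74 against 8.47. The median chromaffin difference was -0.81 in litter 2 and -1.06 in litter 3. Liver genes shared the low Fz4-/- sample of litter 2 in their mean, and it was the lowest sample for 4 of the 9 genes. The liver genes averaged 7.205, 5.89 and 6.23 in Fz4-/- samples, against 7.22, 6.10 and 7.75 in Fz4+/+ samples, so both samples of litter 2 were low. Of 9 liver genes 9 were below 0, with Alb, or albumin, at -0.92, Afp, or alpha-fetoprotein, at -0.50, Apoa2 at -0.42 and Apoa1 at -0.26. Within litter 2, 6 of the 9 liver genes read below 0, with a median of -0.23. Within litter 3 all 9 did, with a median of -1.08. Cartilage and tendon genes averaged between 6.30 and 6.46 in Fz4-/- and between 6.205 and 6.67 in Fz4+/+. Of these 12 genes 7 read below 0, with a median of -0.11. In litter 2 it was 10 of 12, with a median of -0.29. The 4 brightest, Col9a1, Col2a1, Mkx and Scx, differed by 0.11, -0.12, 0.27 and 0.03, while Cnmd, Tnmd and Acan, all below the filter and named after their values were seen, differed by -0.51, -0.46 and -0.30. The part of these tissues in the muscle values was not tested.

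**Figure D5:**
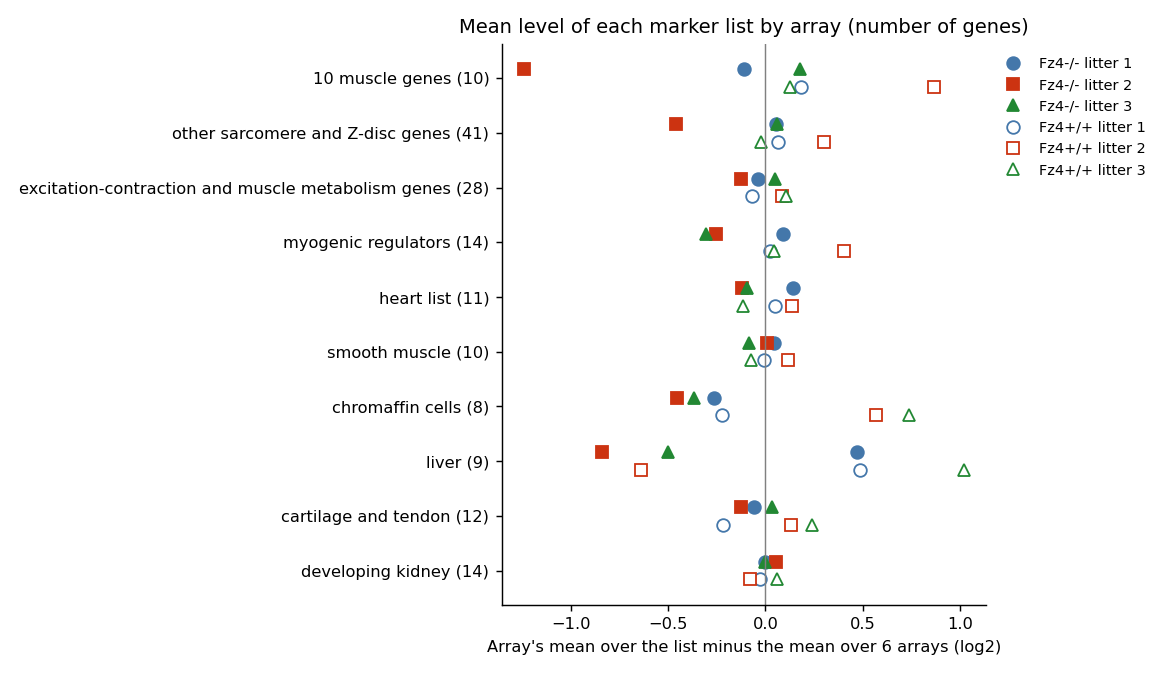
Mean level of each marker list in each sample, as the log2 deviation from the list's mean over 6 arrays, with filled symbols for Fz4-/-, open symbols for Fz4+/+ and the number of genes in brackets. For the 10 muscle genes the 2 squares of litter 2 lie at opposite ends, for liver genes both squares are low, and the means of the kidney markers stay together.

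RNA quality was read from the excess of 3′ over 5′ signal in control probe sets, which grows as RNA degrades. For actin it was 0.86, 0.75 and 0.64 in Fz4-/- samples of litters 1 to 3, against 0.77, 0.90 and 0.76 in Fz4+/+ samples. For Gapdh it was 0.86, 0.76 and 0.75 in Fz4-/- samples, against 0.77, 0.90 and 0.90 in Fz4+/+ samples. The Fz4+/+ sample of litter 2 had the highest actin value and the Fz4-/- sample of litter 2 lay within the range of the others. The part of RNA quality in the muscle values was not tested.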

How the data were processed

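RMA, named without a version in the submitters' processing notes, is how the authors summarised and normalised the Affymetrix arrays. Their log2 values for 45101 probe sets were used as deposited. RMA makes the arrays' distributions nearly equal and compresses differences near background, and no detection call was made.

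Probe sets were named by the platform annotation, which gave 1 gene for 34958, several for 932 and none for 9211, and only the first kind was named. For 34754 the Entrez number matched RefSeq (GRCm38.p6), and 0 symbols changed. After 64 control probe sets were left out, the 27022 with a mean at or above the 40th percentile (5.89) were tested. A gene's brightest probe set stood for it, giving 12535 tested genes. limma 3.58.1 in R 4.3.3 (lmFit, eBayes, two-sided, Benjamini-Hochberg, threshold 0.05) was fitted with genotype as the sole term and was tested on simulated data. Differences are Fz4-/- minus Fz4+/+, and their SE come from the spread within genotypes. The number of arrays limits the precision, and p-values measure only the spread between these samples. Equal replicate numbers mark a shared litter in the labels, and deviations from the genotype means correlated by 0.577, 0.178 and 0.809 in litters 1 to 3.

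Alternatives were the litter as a block, quantile normalization, median centring, no filter, a trended robust prior, array weights, averaging all probe sets of a gene, and each sample left out. Leaving out litter 2 was added after seeing the data. The genes and the 9 other lists were chosen with earlier results of these data known. Named are the 10 genes, the 4 brightest genes of each other list with Myod1, Myf5, Pax7 and Acta1, the 10 genes most like them, and Fzd4. Of the listed genes, 5 are not reported here.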

Additional observations from a re-analysis of the deposited data

How the results depend on the processing

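With 3 samples of each genotype and a spread set by litter 2, the number of arrays limits every value. The count of probe sets called by limma was 0 in every setting but one: array weights called 2, both of Fzd4. With the litter as a replicate block it was 0 as well, with 841 at an unadjusted p under 0.05 against 239 without the block, and the block changed no call. No other striated muscle gene was called in any setting. At an unadjusted p under 0.05 their number ran from 0 to 4, and was 23 of 48 with array weights, where 6084 of all 27022 probe sets were under 0.05. These weights gave the Fz4-/- sample of litter 2 a weight of 8.81, against 0.66 and 0.51 for litters 1 and 3. The mean difference of the 10 genes, -0.78, lay between -1.07 and -0.36 with 1 sample left out, was -0.81 after quantile normalization, -0.80 after median centring and -0.66 with the mean of each gene's probe sets. It became -0.12 without both samples of litter 2, which leaves 2 samples of each genotype. All 10 genes were below 0 in each of these settings except the last, where 7 were, and Tnnc1, Myog and Myl4 read 0.15, 0.29 and 0.22. Of the 10 genes most like them, 6 were kept with the mean of each gene's probe sets.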

Other observations

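The genes in this paragraph were singled out after their values were seen. Some sarcomere and Z-disc genes were low in the Fz4+/+ sample of litter 3 as well as in the Fz4-/- sample of litter 2. Ttn, which encodes the giant protein titin that spans the sarcomere, read 7.37, 5.70 and 6.96 in Fz4-/- samples of litters 1 to 3, against 6.86, 7.41 and 5.72 in Fz4+/+ samples. Ldb3, a Z-disc protein, read 6.98, 5.44 and 6.51 in Fz4-/- samples, against 6.99, 7.37 and 5.51 in Fz4+/+ samples. Klhl41 read 6.53, 5.63 and 6.17 in Fz4-/- samples, against 6.52, 7.19 and 5.52 in Fz4+/+ samples. In the same Fz4+/+ sample of litter 3, Actc1, Myh3 and Tnnt2 read 10.002, 7.60 and 7.28, within or above the range of the other 3 samples of litters 1 and 3, whereas Tnnc1, Myl4 and Myog read 9.23, 8.05 and 6.19, the lowest of these 4 samples.

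Isoforms of the slow and fast troponins did not follow 1 order. Tnnc1 and Tnnc2 spanned 3.42 and 2.43 between the samples of litter 2, whereas Tnnt1, Tnnt3, Tnni1 and Tnni2 differed there by -0.62, -0.20, -0.11 and -0.50 (Fz4-/- minus Fz4+/+).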
